A study of Mus musculus with 2 samples.

Results

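Interferon-stimulated B cells of the inflamed stomach were B cells with several UMIs of genes induced by interferon. They were chosen by their own counts: a cell needed at least 1 UMI (1 counted RNA molecule) of Cd79a, the signalling chain of the B cell receptor, none of Cd3d, Cd3e, Cd3g or Siglech, and at least 3 UMIs in all of Oasl1, Irf7, Rtp4, Isg15 and Ifit3. The rule found 861 cells, of which 440 were from IL-27 mice and 421 from PBS mice. They came from 18715 B cells that passed the same gate, and from 32372 cells of all types with at least 200 genes and at most 10% mitochondrial UMIs. The other 17854 gated B cells, with 0 to 2 of those UMIs, are called other B cells below.

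All mice were TxA23, a strain whose transgenic T cell receptor leads to autoimmune gastritis. The IL-27 library pooled 3 females whose implanted pumps held 800 ng of recombinant IL-27 (covalently linked p28 and EBI3, 4 µg per mL in 200 µL). The PBS library pooled 1 female and 1 male with PBS pumps. Pumps were implanted when mice were 3 months old and stayed in for 4 weeks. Live CD45+ cells flushed from the gastric mucosa were sequenced with 10x Genomics 5' chemistry. The pump sat under the skin, and the labels give no level of the cytokine in the stomach. Each group was 1 library, so no comparison below carries a test. Intervals are exact 95% intervals that cover counting error only.

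Type I interferons bind the receptor made of Ifnar1 and Ifnar2, whose kinases Jak1 and Tyk2 activate transcription factors of the STAT family. These join Irf9 and bind an interferon-stimulated response element in the promoters of target genes. The targets include antiviral effectors, RNA and DNA sensors, antigen presentation genes and brakes on the pathway itself, such as Usp18 and Socs1. IL-27 binds Il27ra and Il6st (gp130) and activates STAT factors too, so part of its target set overlaps that of the interferons. B cells carry both receptors, and B cells with an interferon signature are known from infection and from autoimmune disease.

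The rule genes sit on different chromosomes (GENCODE M21, GRCm38, also called mm10). Oasl1, an oligoadenylate synthetase-like protein that limits Irf7 translation in mice, is ENSMUSG00000041827 on chromosome 5 at 114923240 to 114937915, plus strand. Irf7, the transcription factor that amplifies interferon production, is ENSMUSG00000025498 on chromosome 7 at 141262706 to 141266481, minus strand. Rtp4, an interferon-induced transporter of receptors, is ENSMUSG00000033355 on chromosome 16 at 23520291 to 23614222, plus strand. Isg15, a ubiquitin-like protein attached to other proteins, is ENSMUSG00000035692 on chromosome 4 at 156199424 to 156200818, minus strand. Ifit3, which acts with its family in binding viral RNA, is ENSMUSG00000074896 on chromosome 19 at 34583531 to 34588731, plus strand.

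The response element is shown for some of the genes whose RNA marks these cells; the promoter sequence is the same in every cell. Promoter windows of RefSeq genes (GRCm38.p6, 250 bases before to 50 after each start) were searched on both strands for GAAA, any 2 bases and GAAA, which reads TTTC, any 2 bases and TTTC on the opposite strand. The lines below show stretches upstream of the start for genes the results turn on, each on the strand of its gene, with the matching bases in capitals. Overlapping matches run together.

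Isg15 (chr4:156200860-156200911, minus strand): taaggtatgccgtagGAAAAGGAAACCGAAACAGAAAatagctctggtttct

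Ifit3 (chr19:34583358-34583431, plus strand): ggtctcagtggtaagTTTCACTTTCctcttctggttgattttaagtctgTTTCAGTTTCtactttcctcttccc

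Ifit1 (chr19:34640770-34640828, plus strand): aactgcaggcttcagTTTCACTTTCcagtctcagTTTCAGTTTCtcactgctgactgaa

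Bst2 (chr8:71537572-71537617, minus strand): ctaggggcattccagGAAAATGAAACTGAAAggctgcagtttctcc

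Oas1a (chr5:120907526-120907560, minus strand): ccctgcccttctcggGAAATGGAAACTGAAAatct

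Ifi208 (chr1:173673592-173673631, plus strand): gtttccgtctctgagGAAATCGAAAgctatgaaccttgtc

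Isg15 held 3 overlapping matches, the nearest 66 bases before the start. Ifit3, Ifit1, Bst2 and Oas1a held 2 matches each, and Ifi208 held 1, which lay 58 bases before the start. The printed stretch of Ifit3 was the same in Ifit3b, and that of Ifi208 was the same in Ifi213. The windows of Irf7 and Oasl1 held no match, and Rtp4 had no window in the table. Of interferon response genes outside the rule, 24 of the 51 with a window held a match (47.1%). Among guanylate-binding and immunity-related GTPases, which attack the vacuoles of intracellular microbes, 9 of 10 did. The share was 3.99% over the 27025 genes with a window, and 1 of 9 B cell identity genes held a match. A match describes these letters and does not show binding.

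Barcode suffixes show 3 wells for IL-27 and 2 for PBS. The labels do not say that a well is a mouse, so wells are given as values and not as replicates. The libraries held 80121995 UMIs (IL-27) and 43501501 UMIs (PBS). Y-linked RNA was found in PBS well 2 alone, with 3074 UMIs of 4 genes. PBS well 1 held 0 of these UMIs, so cells of the male were seen in PBS well 2 only. PBS well 2 also had more Siglech+ cells, 2.24% of its cells, against 0.768%, 0.482% and 0.542% in the IL-27 wells and 0.394% in PBS well 1. Siglech marks plasmacytoid dendritic cells, the main producers of type I interferon. The libraries shared 355 barcode sequences, of which 1 was an interferon-stimulated B cell in both.

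Interferon-stimulated B cells made up 3.99% of gated B cells in IL-27 (3.63 to 4.37, 440 of 11023) and 5.47% in PBS (4.98 to 6.01, 421 of 7692). The ratio of IL-27 over PBS was 0.729 (0.637 to 0.836). By well the share was 3.05%, 3.35% and 5.25% in IL-27, against 7.02% and 3.75% in PBS. The wells overlapped: IL-27 well 3 lay above PBS well 2, and PBS well 1 was the highest of all. Over PBS well 1 alone the ratio was 0.568 (0.488 to 0.662), and over PBS well 2 alone it was 1.06 (0.876 to 1.30). The direction therefore rested on PBS well 1, which like the IL-27 wells had no Y-linked RNA. Between the PBS wells, sex and well cannot be told apart.

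The share was also taken at equal depth, because a limit of 3 UMIs depends on it. Interferon-stimulated B cells had a median of 3138 UMIs in IL-27 and 2925 in PBS, and other B cells 2804 and 2769 in the same libraries. After each cell was thinned to 1500 UMIs, which left out 805 IL-27 and 469 PBS B cells as too shallow, the share was 1.59% in IL-27 and 2.77% in PBS. The thinned ratio was 0.575. Thinned shares by well were 1.25%, 1.21% and 2.15% in IL-27 and 3.51% and 1.98% in PBS, and the wells still overlapped.

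T cells with the same 5-gene sum of at least 3 had the same direction between libraries. They were 9.66% of gated T cells in IL-27 and 12.4% in PBS, where gated T cells had a Cd3 UMI and none of Cd79a or Siglech. By well the T cell share was 8.11%, 11.9% and 9.69% in IL-27, against 15.3% and 6.94% in PBS. PBS well 1 was again the highest, and for T cells PBS well 2 was the lowest.

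**Figure D1:**
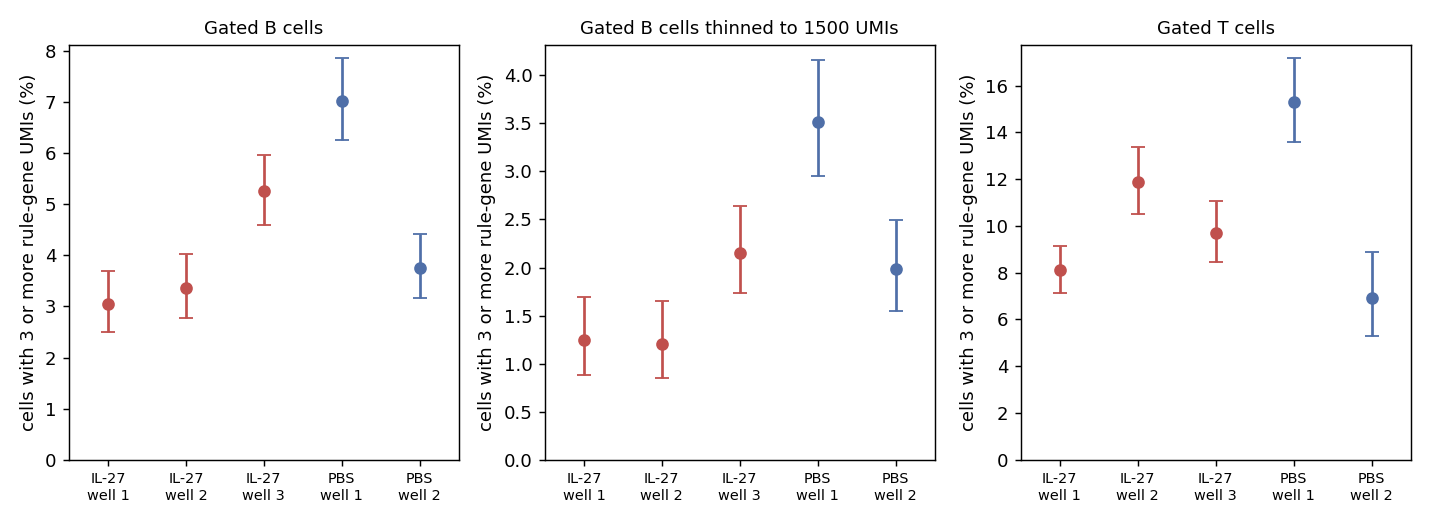
Percent of cells with 3 or more UMIs of the rule genes in each well (x axis), for gated B cells, for gated B cells thinned to 1500 UMIs and for gated T cells. Points are shares and bars exact 95% binomial intervals. In each panel PBS well 1 is the highest, and for B cells IL-27 well 3 lies above PBS well 2.

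The 5 rule genes contributed unequally to the choice of cells. Irf7 gave 45.8% of the 2182 rule-gene UMIs in IL-27 and 44.1% of the 2506 in PBS. Of cells that passed on a single rule gene (61 in IL-27 and 46 in PBS), 49 and 42 passed on Irf7. Most cells passed on several: 184 IL-27 and 161 PBS cells had 2 of the genes, 142 and 127 had 3, 42 and 61 had 4, and 11 and 26 had all 5. The mean sum per cell was 4.96 UMIs in IL-27 and 5.95 UMIs in PBS. By well it was 4.74, 5.32 and 4.88 UMIs in IL-27, against 5.37 and 7.16 UMIs in PBS, so the IL-27 wells were all lower than the PBS wells. This sum is the score that chose the cells, so its levels are a description only.

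The rule genes are described here by level only, because they chose the cells. Levels are in CPM (counts of a gene scaled to all UMIs of the same cells). Irf7 had 718, 635 and 517 CPM in the IL-27 wells, against 753 and 723 CPM in the PBS wells. Isg15 had 241, 241 and 241 CPM in IL-27, against 329 and 395 CPM in PBS. Both genes were lower in every IL-27 well than in either PBS well, as were 8.82% of all genes tested. Because the rule genes chose the cells, such differences describe the chosen set and give no independent support. Ifit3 had 116, 107 and 59.5 CPM in IL-27, against 148 and 217 CPM in PBS, again without overlap. Rtp4 had 224, 266 and 248 CPM in IL-27, against 290 and 264 CPM in PBS. Oasl1 had 148, 132 and 111 CPM in IL-27, against 136 and 130 CPM in PBS, and for these last genes the wells overlapped. In other B cells all 5 were low, from 1.02 CPM for Ifit3 in IL-27 well 3 to 45.3 CPM for Irf7 in PBS well 1.

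The threshold cut through a continuous range. In IL-27, 198 cells had a sum of 3, just inside, and 474 a sum of 2, just outside. In PBS 126 cells were just inside and 269 just outside. The summed level of the 64 interferon response genes outside the rule was 9238 CPM at a sum of 3 and 7470.3 CPM at a sum of 2 in IL-27. In PBS it was 11124 CPM at a sum of 3 and 7615 CPM at a sum of 2. At sums of 10 or more it was 20876 CPM in IL-27 and 19985 CPM in PBS, and where no rule gene was detected 4233 CPM in IL-27 and 3966 CPM in PBS. The set is therefore a range of a score, with no gap at its lower edge.

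**Figure D2:**
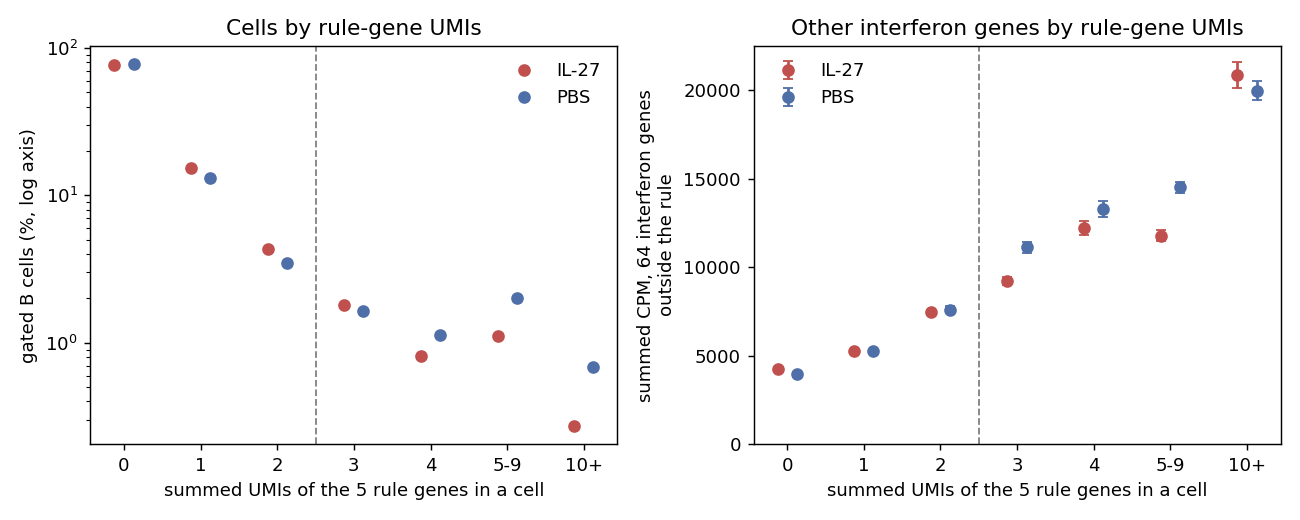
Left, percent of gated B cells (log axis) by the summed UMIs of the 5 rule genes; right, summed CPM of 64 interferon response genes outside the rule in the same cells, with exact 95% Poisson intervals. The dashed line marks the rule. The level is higher just inside it than just outside, 9238 CPM at 3 against 7470.3 CPM at 2 in IL-27, and 11124 CPM against 7615 CPM in PBS.

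Interferon genes that the rule did not name were higher in the chosen cells as a group. This is the contrast the rule itself made, so it is a description and gives no independent support. Of 7615 genes tested (mean of at least 10 CPM over both cell sets and libraries), 98 were at least 2-fold higher than in other B cells in both libraries (1.29%). Of the 65 interferon response genes, 64 were in the files, 54 passed the filter on low values, 39 of those were at least 2-fold higher, and 0 were 2-fold lower. Their median log2 ratio was 1.52 in IL-27 and 1.90 in PBS, beside -0.04 in both libraries over all genes tested. The filter can pass a gene on its level in the chosen cells alone. Among the 38 genes of the list that had at least 10 CPM in other B cells of both libraries, 24 were at least 2-fold higher, beside 0.649% of all genes so filtered. By well, 53 of the 54 were higher in all 5 wells, beside 5.61% of all genes tested, the exception being Pnpt1.

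The summed level of these genes was 12111, 12366 and 11056 CPM in interferon-stimulated B cells of the IL-27 wells, against 4816, 4583 and 4406 CPM in the other B cells of the same wells. In the PBS wells it was 14848 and 13444 CPM, against 4892 and 3802 CPM. The ratio was 2.54 in IL-27 (2.499 to 2.57) and 3.32 in PBS (3.27 to 3.37). The list's most abundant members were Ifi27l2a, a small interferon-induced protein, Ly6e, a surface protein that restricts viral entry, and Shisa5. Ifi27l2a had 2744 CPM in IL-27 and 2942 CPM in PBS, against 641 CPM and 552 CPM in the other B cells of those libraries. A single IL-27 cell held 535 of the 4667 Ifi27l2a UMIs.

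Several antiviral effectors had high ratios. Ifi44 had 58.2, 76.4 and 39.99 CPM in interferon-stimulated B cells of the IL-27 wells and 130 and 89.9 CPM in those of the PBS wells, and at most 4.11 CPM in the other B cells of any well. Its log2 ratio over other B cells was 3.88 in IL-27 and 5.02 in PBS. Ifit3b, a near copy of Ifit3 whose reads may be split between the copies, had log2 ratios of 4.57 and 5.49 in the same libraries. Mx1, a dynamin-like GTPase that blocks viral nucleocapsids, had log2 ratios of 4.07 in IL-27 and 4.87 in PBS. Bst2, which tethers budding virus to the membrane, was more abundant, with 204, 171 and 208 CPM in the IL-27 wells and 265 and 296 CPM in the PBS wells. Other B cells held 44.1 to 49.2 CPM of Bst2 across the wells.

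Ifi208, the marker outside the rule, encodes a PYHIN family protein (ENSMUSG00000066677, chromosome 1 at 173673675 to 173698395, plus strand). It had 154, 141 and 114 CPM in interferon-stimulated B cells of the IL-27 wells and 164 and 212 CPM in those of the PBS wells. In other B cells it had 25.0 to 33.1 CPM, so the cell sets did not overlap in any well. Ly6a, the surface antigen Sca-1, had 276, 336 and 209 CPM in IL-27, against 453 and 106 CPM in PBS. For Ly6a PBS well 1 stood highest and PBS well 2 lowest.

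**Figure D3:**
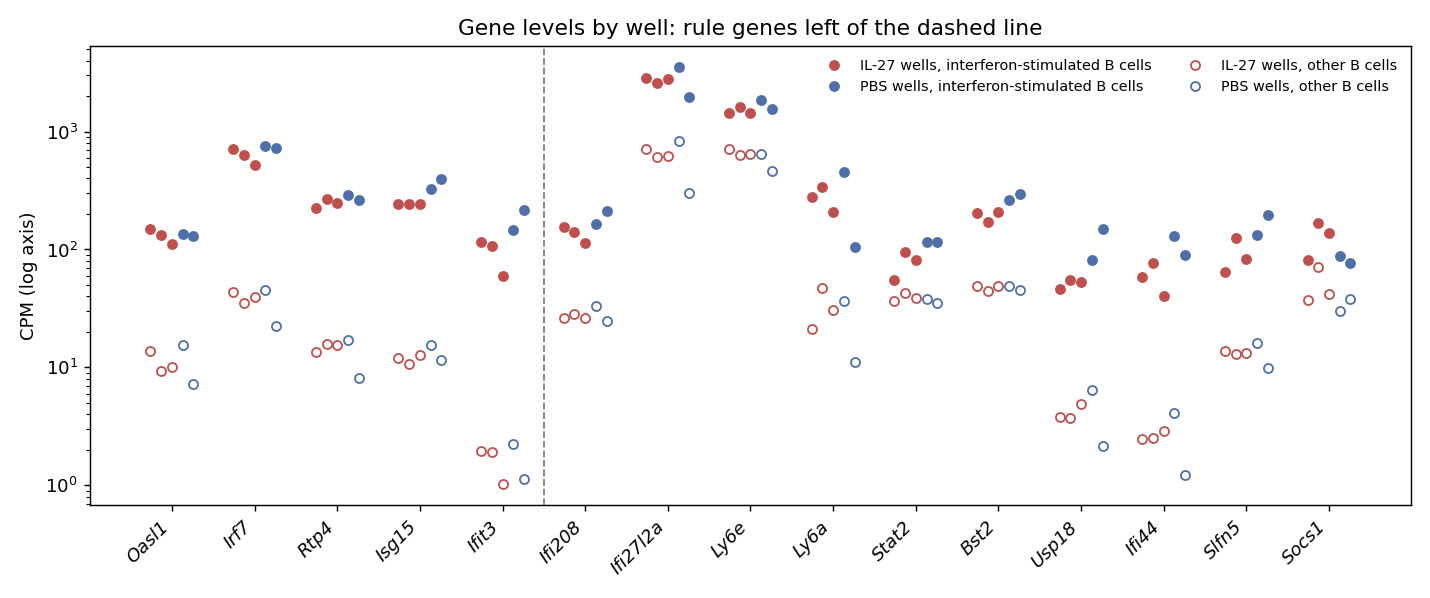
CPM (log axis) of rule genes, left of the dashed line, and of other interferon genes, in interferon-stimulated B cells (filled) and other B cells (open) of each well. For every gene shown the filled points lie above the open points of the same well. Right of the dashed line the IL-27 filled points all lie below the PBS ones for Ifi208, Stat2, Bst2, Usp18, Ifi44 and Slfn5. The genes shown were picked, and over all genes tested this held for 8.82%.

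Genes that carry and brake the interferon signal were also higher. Irf9 had 125, 139 and 133 CPM in interferon-stimulated B cells of the IL-27 wells and 149 and 160 CPM in those of the PBS wells, against 54.8 to 77.4 CPM in other B cells. Its log2 ratios were 0.91 in IL-27 and 1.36 in PBS, and those of Stat2 were 0.99 and 1.64. Usp18, which removes Isg15 from proteins and blocks the interferon receptor, had log2 ratios of 3.35 in IL-27 and 4.38 in PBS. Socs1, which inhibits Jak kinases, had 81.4, 169 and 137 CPM in IL-27 and 88.9 and 77.6 CPM in PBS, with log2 ratios over other B cells of 1.41 and 1.28.

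Receptors and upstream sensors were mostly close to other B cells. Among 8 tested interferon receptor and kinase genes, none was 2-fold apart in both libraries. Over all genes tested 1.29% were higher and 0.0525% lower, so this count was near that share. The median log2 ratio of the 8 was -0.09 in each library, beside -0.04 over all genes tested. Without the cells with myeloid RNA described below, it was -0.10 in IL-27 and -0.32 in PBS. The summed ratio of the list was then 0.974 in IL-27 (0.917 to 1.03) and 0.867 in PBS (0.809 to 0.927). Among 9 tested sensors and adaptors of nucleic acid sensing, 1 was at least 2-fold higher, beside 1.29% of all genes tested. That was Tlr7, the endosomal receptor for single-stranded RNA, at 37.6 CPM in IL-27 and 42.3 CPM in PBS, against 9.75 and 10.5 CPM in other B cells. Tlr9, the receptor for unmethylated DNA, had log2 ratios of -0.03 in IL-27 and 0.14 in PBS. Il27ra was lower, with log2 ratios of -0.59 in IL-27 and -0.52 in PBS.

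Interferon transcripts themselves were almost absent. Across the 20 interferon genes on the list, the chosen cells held 1 UMI in IL-27, of Ifng, and 0 in PBS. With 3 UMIs taken as the one-sided limit that a count of 0 allows, the level in those PBS cells was at most 2.01 CPM.

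Guanylate-binding and immunity-related GTPases had 6 of 10 tested genes at least 2-fold higher in both libraries: Gbp7, Gbp9, Irgm1, Tgtp2, Ifi47 and Igtp, beside 1.29% of all genes tested. All 6 were among the 8 of the list with at least 10 CPM in other B cells of both libraries, where the share over all genes was 0.649%. The summed level of the whole list was 733, 991 and 642 CPM in interferon-stimulated B cells of the IL-27 wells and 849 and 1110.4 CPM in those of the PBS wells, against 252 to 339 CPM in other B cells. Reads of Tgtp2 may be shared with Tgtp1.

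MHC class I presentation genes were mostly slightly higher. Of 21 tested genes 16 were higher in both libraries, beside 23.3% of all genes tested. None was 2-fold apart in both, beside 1.29% of all genes higher and 0.0525% lower. The summed ratio was 1.18 in IL-27 (1.16 to 1.20) and 1.20 in PBS (1.18 to 1.22). Tap1, the peptide transporter, had the log2 ratios 0.67 in IL-27 and 0.89 in PBS. Psmb9, an immunoproteasome subunit, had 0.45 and 0.60, while the heavy chain H2-K1 had 0.16 and 0.07. MHC class II genes had a summed ratio of 1.04 in IL-27 (1.03 to 1.05) and 0.920 in PBS (0.911 to 0.929).

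B cell identity genes as a sum were close to other B cells. None of 14 B cell identity genes was 2-fold apart in both libraries, beside 1.29% of all genes tested higher and 0.0525% lower. Ly6d had log2 ratios of 0.81 in IL-27 and 1.10 in PBS. Of the 14 genes, 10 were lower in both libraries, beside 2906 of the 7615 genes tested, and 3 were higher, beside 23.3%. The summed ratio of the 14 was 0.958 in IL-27 and 0.955 in PBS. The summed follicular genes, such as Fcer2a and Ighd, had ratios of 0.891 and 0.904. T cell markers had summed ratios of 0.970 and 0.937, and plasmacytoid dendritic markers 1.05 and 1.19, with Klk1, Cox6a2, Cd209d and Smim5 at 0 in IL-27 and Cd209d at 0 in PBS. The 4 genes at least 2-fold lower in both libraries (0.0525% of genes tested) were antigen receptor genes, the kappa variable genes Igkv15-103, Igkv10-96, Igkv6-17 and Igkv6-13.

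Myeloid and NK cell RNA were exceptions. All 8 tested myeloid markers were higher than in other B cells in both libraries, beside 23.3% of all genes tested, and 6 were at least 2-fold higher, beside 1.29%. Of these 8, 3 had at least 10 CPM in other B cells of both libraries, and 2 of the 3 were at least 2-fold higher, beside 0.649%. Their summed level over 13 genes was 1890.5, 2455 and 910 CPM in interferon-stimulated B cells of the IL-27 wells and 1014 and 7781 CPM in those of the PBS wells. Other B cells held 483 to 614 CPM in the IL-27 wells and 669 and 956 CPM in the PBS wells. C1qa was at 0 in the chosen cells of both libraries, and Fscn1 in those of IL-27. Lyz2, the lysozyme of macrophages, had 397 CPM in IL-27 and 2297 CPM in PBS, against 21.1 and 91.5 CPM in other B cells.

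This RNA sat in few cells. The limit was 3 or more UMIs in all of Lyz2, Csf1r, Tyrobp, Fcer1g, S100a8, S100a9, Cd68 and Adgre1, chosen after seeing the data. With this limit over these 8 genes, 14 IL-27 and 16 PBS cells held 1179 of 1218 and 4269 of 4320 such UMIs. Of the 16 PBS cells, 13 were in PBS well 2, where they were 9.49% of the interferon-stimulated B cells. Their median depth was 6257 UMIs in IL-27 and 7852 UMIs in PBS, against 3122 and 2904 UMIs in the remaining cells. Scrublet, a doublet caller, marked 0 of the 14 and 1 of the 16, but its call in PBS well 2 did not work.

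NK cell markers, such as Gzma, a granzyme of killer cells, had a summed ratio over other B cells of 3.44 in IL-27 (3.09 to 3.82) and 1.55 in PBS (1.41 to 1.71). All 3 tested markers were higher in both libraries, beside 23.3% of all genes tested, and Gzma was at least 2-fold higher, beside 1.29%. Of these 3, 2 had at least 10 CPM in other B cells of both libraries, and 1 of the 2 was at least 2-fold higher, beside 0.649%. The summed level of the 8 markers was 8.73, 11.6 and 442 CPM in interferon-stimulated B cells of the IL-27 wells, against 128, 53.4 and 46.5 CPM in other B cells. In the PBS wells it was 370 and 181 CPM, against 86.0 and 286 CPM, so that IL-27 well 3 and PBS well 1 alone were higher than their other B cells. With 3 or more UMIs of these markers as the limit, also chosen after seeing the data, 2 IL-27 and 4 PBS cells held 390 of 417 and 393 of 444 such UMIs. Klrb1c was at 0 in the IL-27 cells. Without cells past that limit the interferon genes' summed ratio was 2.55 in IL-27 and 3.34 in PBS. The cells with NK RNA and those with myeloid RNA were not separate sets. Without the cells past the myeloid limit, the NK summed ratio was 0.645 in IL-27 (0.406 to 0.975) and 0.631 in PBS (0.466 to 0.837). Gzma was then no longer 2-fold higher.

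Without the cells with myeloid RNA, among interferon-stimulated and other B cells alike, 66 of the 98 higher genes were still at least 2-fold higher, of which Jaml alone no longer passed the filter on low values. They included 38 of the 39 interferon response genes, the exception being Slfn1, and all 6 GTPases. They included 0 of the 6 myeloid markers, but these markers are part of the 8 genes that chose the cells to remove. Their fall was set by that choice and is not a result. The interferon genes' summed ratio was then 2.56 in IL-27 and 3.41 in PBS. Of the 44 higher genes in none of the lists, 20 were still higher, among them Ifitm3, Mov10, Ddx60, Lgals9, Parp10 and Phf11a. Ifitm3, which hinders viral entry at endosomes, had log2 ratios of 3.95 in IL-27 and 4.77 in PBS with all cells, and 3.42 and 4.38 without those with myeloid RNA. Among the 24 others, which were no longer 2-fold higher, were Fn1, Ccr2, Ccl6, Ms4a6c and Mpeg1.

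**Figure D4:**
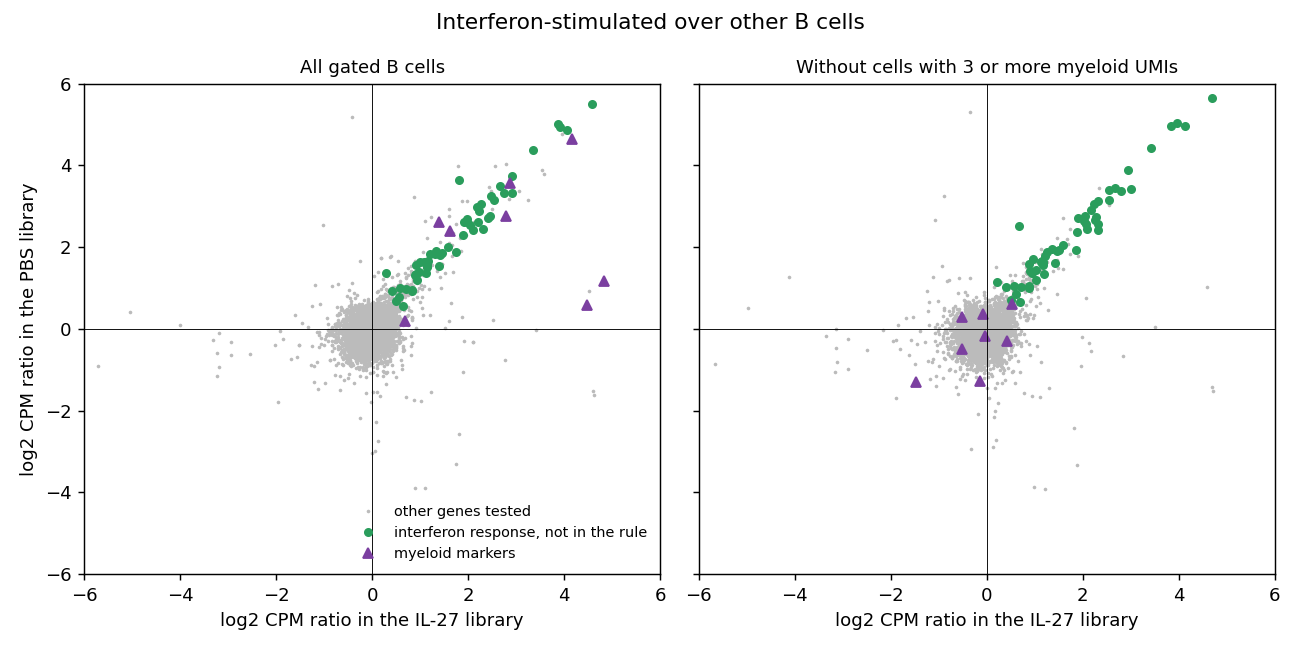
Log2 CPM ratio of interferon-stimulated over other B cells for each gene tested, IL-27 on the x axis and PBS on the y axis, with all gated B cells (left) and without cells with 3 or more myeloid UMIs (right). Interferon response genes stay in the upper right in both panels, while 6 myeloid markers at least 2-fold higher on the left are all below 2-fold on the right. These 6 are part of the 8 genes by which the cells were removed, so their fall was set in advance.

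The same interferon genes were higher in interferon-stimulated T cells. Of the 54 genes tested, 30 were at least 2-fold higher than in other T cells in both libraries, beside 1.05% of all genes tested, and 27 of these were among the 39 of the B cells. The median log2 ratio in T cells was 1.20 in IL-27 and 1.08 in PBS. Usp18 had log2 ratios of 3.35 in IL-27 and 4.38 in PBS in B cells, and of 2.72 and 2.37 in T cells. With 1 library per group the difference between the cell types was not tested.

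Within interferon-stimulated B cells the interferon response was lower in IL-27 than in PBS. The summed level was 11602 CPM in IL-27 and 14314 CPM in PBS, a ratio of 0.811 (0.795 to 0.826), and by well IL-27 and PBS did not overlap. Of 53 genes tested, 51 were lower, beside 47.9% of all genes tested, and 2 higher, beside 52.1%, with a median log2 ratio of -0.41 beside 0.01 over the 5614 genes tested. At least 2-fold lower were 3 of them, beside 0.766% of all genes, and at least 2-fold higher were 0, beside 0.855%. For 30 of the 53 genes all IL-27 wells were lower than the lower PBS well, beside 8.82% of all genes. For 0 they were all above the higher one, beside 9.74%.

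The 3 genes were Usp18, Ifi44 and Slfn1. Usp18 had 46.5, 55.6 and 53.0 CPM in IL-27, against 81.3 and 150 CPM in PBS, a log2 ratio of -1.02 with no overlap of wells. Ifi44 had a log2 ratio of -1.10, with no overlap either. Slfn1, of the Schlafen family that restrains lymphocyte growth, had 17.5, 16.2 and 4.32 CPM in IL-27, against 9.76 and 70.5 CPM in PBS, a log2 ratio of -1.62 that rested on PBS well 2. Xaf1 had 98.9, 97.3 and 121 CPM in IL-27, against 180 and 206 CPM in PBS, a log2 ratio of -0.78. Dhx58 and Uba7, the exceptions, had log2 ratios of 0.10 and 0.15.

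The rule-gene sum of the cells differed in the same direction. Among cells with a rule sum of 3 or 4 the summed interferon genes had 9938, 9736 and 10566 CPM in the IL-27 wells, against 12669 and 10363 CPM in the PBS wells. Among cells with 5 or more they had 16502, 17322 and 11703 CPM in IL-27, against 17211 and 15089 CPM in PBS. With all chosen cells the wells overlapped in both ranges. IL-27 well 3 lay above PBS well 2 in the lower range, and IL-27 wells 1 and 2 lay above PBS well 2 in the upper range. Cells with sums of 5 or more numbered 33, 38 and 81 of 105, 112 and 223 in the IL-27 wells, against 125 and 83 of 284 and 137 in the PBS wells. Without the cells with myeloid RNA the lower range had 9957, 9768 and 10874 CPM in the IL-27 wells, against 12907 and 10978 CPM in the PBS wells. There the wells no longer overlapped. The upper range then had 16656, 17433 and 12089 CPM in IL-27, against 17343 and 15946 CPM in PBS, and the wells still overlapped. Over both ranges, without the cells with myeloid RNA, the ratio of IL-27 over PBS was 0.796.

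Over all gated B cells, which the interferon threshold did not choose, the interferon response genes were nearly level. Their sum was 4915 CPM in IL-27 and 4957 CPM in PBS, a ratio of 0.992 (0.984 to 0.999). By well it was 5077, 4893 and 4825 CPM in IL-27, against 5716 and 4256 CPM in PBS, so that all IL-27 wells lay between the PBS wells. Over PBS well 1 the ratio was 0.860, and over PBS well 2 it was 1.16. Of 36 genes tested none was 1.5-fold apart, beside 0.598% of all genes higher and 0.369% lower, and 13 were higher, beside 59.1%, and 23 lower, beside 40.9%. In the other B cells alone the sum was 4816, 4583 and 4406 CPM in IL-27, against 4892 and 3802 CPM in PBS.

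**Figure D5:**
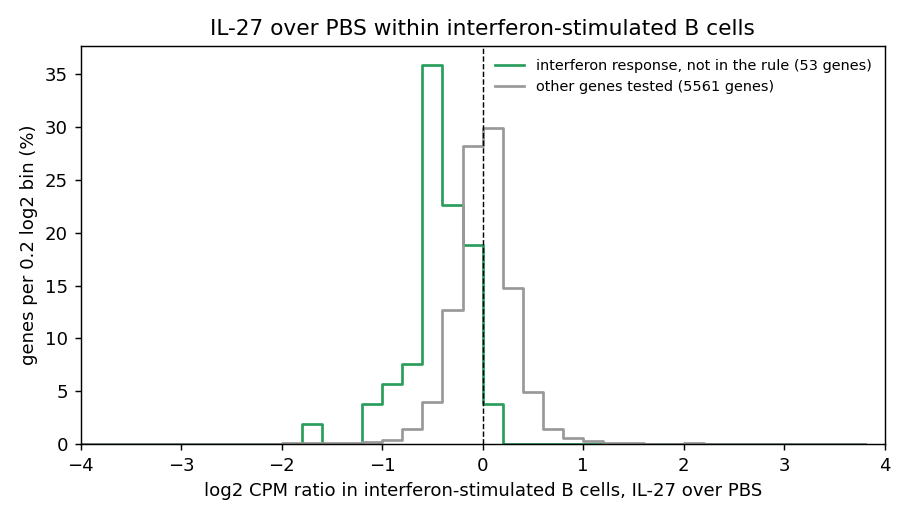
Percent of genes (y axis) by log2 CPM ratio of IL-27 over PBS within interferon-stimulated B cells (x axis, bins of 0.2), for interferon response genes outside the rule and for the other genes tested. The interferon genes have a median of -0.41, and 51 of 53 lie below 0.

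Socs1 and Socs3, brakes of cytokine signalling, had higher levels in IL-27, unlike Usp18. Socs1 had a log2 ratio of IL-27 over PBS of 0.66 within interferon-stimulated B cells, although IL-27 well 1, at 81.4 CPM, lay between the PBS wells. Socs3, a target of Stat3, had 23.3, 41.7 and 25.9 CPM in IL-27, against 16.3 and 5.29 CPM in PBS, a log2 ratio of 1.22. The wells did not overlap, as for 9.74% of all genes tested in this direction. Few UMIs lie behind the 5.29 CPM, because these cells of PBS well 2 held 567373 UMIs of all genes. In other B cells Socs3 had 15.4, 28.3 and 19.6 CPM in IL-27, against 12.6 and 10.5 CPM in PBS, in the same direction.

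Of the 5614 genes tested within interferon-stimulated B cells, 48 were at least 2-fold higher in IL-27, and 96 were without PBS well 1. Several of the highest ratios came from few cells. Ighg1, the IgG1 heavy chain, had 1500 UMIs in IL-27, of which 1409 were in 1 cell, and 0 in PBS. Slpi, a secreted protease inhibitor, had 751 UMIs in IL-27, of which 726 were in 1 cell, against 25 in PBS. Igha, the IgA heavy chain, had 175 of its 194 IL-27 UMIs in 1 cell, and Hist1h3e, a replication histone, had 158 of 194. Hmgb2, a chromatin protein of dividing cells, was found in 119 IL-27 cells, but 1 cell held 100 of its 386 IL-27 UMIs. It had 108, 111 and 325 CPM in the IL-27 wells, against 85.7 and 102 CPM in the PBS wells. Germinal centre genes had 66.9, 46.3 and 303 CPM in IL-27, against 41.2 and 54.6 CPM in PBS, so that IL-27 well 3 alone stood apart. Among other B cells this well was also the highest, at 190 CPM.

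Several of the lowest ratios belonged to genes known from myeloid cells. Fn1, S100a4, Lyz2, S100a6, Ccl6, Ms4a6c, Ifitm2 and Ccr2 had log2 ratios of IL-27 over PBS from -3.63 to -1.80, and in each PBS well 2 was the highest well. S100a4 had 8.73, 25.5 and 2.16 CPM in IL-27, against 6.51 and 229 CPM in PBS. Of the 43 genes at least 2-fold lower in IL-27, 18 had a ratio still at least 2-fold lower without the cells with myeloid RNA. Of these 18, 12 still passed the filter on low values, and S100a4, Sdc3, Tmem176b, Lyz2, Ccr2 and Slfn1 did not. Lyz2 was also one of the genes by which those cells were removed. Without PBS well 1 the count was 178 and without PBS well 2 it was 22.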

How the data were processed

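Cell Ranger 3.0.0 and mm10 stand in the submitters' processing notes, and software version 3.1.0 in the file headers. The values are raw counts of UMIs, as the authors deposited them. GENCODE M21 held 31011 of the 31053 gene IDs.

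UMIs were summed over cells of a class within a library or a barcode-suffix well and given as CPM over all genes. Log2 ratios used a pseudocount of 1 CPM. Genes needed a mean of 10 CPM (20 CPM for IL-27 over PBS) and 20 UMIs, and the rule and gate genes were left out. Shares had exact (Clopper-Pearson) binomial, sums exact Poisson and ratios exact conditional intervals at 95%. With 1 library per group no test across samples was possible, and no p-value was computed. UMIs count molecules, but intervals cover counting error only.

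The members, lists and comparisons were chosen with earlier results of these data known. Lists were fixed by name, and 323 of 325 symbols were found. Genes named by size were the 15 highest and 10 lowest mean log2 ratios against other B cells (at least 50 CPM in the higher class) and the 8 highest and 8 lowest of IL-27 over PBS (at least 50 CPM and 40 UMIs), leaving out unnamed genes and those for antigen receptor variable regions, sex chromosomes, mitochondria, ribosomal proteins and haemoglobin. Igkv15-103, Igkv10-96, Igkv6-17, Igkv6-13, Mov10, Ddx60, Lgals9, Parp10, Phf11a, Mpeg1, Jaml, Sdc3 and Tmem176b were named after their values were seen.

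Scrublet (in scanpy 1.11.5) marked 4.17%, 2.53% and 2.00% of cells in IL-27 and 1.58% and 0.0183% in PBS by well. The last lies below 0.5% and was not used. Doublets were removed only as an alternative. Sums and intervals used numpy 2.4.6, scipy 1.17.1 and pandas 2.3.3, and were tested on simulated data. Alternatives changed the cell filters, the rule, doublets, depth, scaling, pseudocount or gene filters, or left out a well. The removal of cells with myeloid RNA or with NK marker RNA and a sum without Ifi27l2a, Ly6e and Shisa5 were chosen after seeing the data.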

Additional observations from a re-analysis of the deposited data

How the results depend on the processing

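No paired analysis was possible because each group was 1 library and the labels number no samples within a group. The labels tie no well to a mouse, and the 3-UMI limit depends on depth. Stricter filters on mitochondrial share or detected genes and removal of called doublets or of cells with NK marker RNA moved no share or ratio beyond its counting interval and no count by over 1.5 times.

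The share in IL-27 was 8.29% with a rule sum of at least 2, 1.38% with at least 5, 3.44% with 2 rule genes detected and 1.59% thinned. In PBS these were 8.97%, 2.70%, 4.88% and 2.77%. The ratio of shares was 0.924, 0.510 and 0.575 with a sum of at least 2, of at least 5 and thinned. Leaving out wells gave 3.20% to 4.42% in IL-27, 3.75% to 7.02% in PBS and a ratio of 0.568 to 1.06, reversed at 1.06 without PBS well 1. The cause was not tested.

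Interferon genes outside the rule, over other B cells, had ratios in IL-27 of 2.16 (sum of at least 2), 2.91 (at least 5), 2.65 (2 rule genes), 2.58 (Cd79a of at least 2), 3.25 (thinned) and 2.58 (without Ifi27l2a, Ly6e and Shisa5), and 2.48 to 2.61 without single wells. In PBS they were 2.82 (sum of at least 2), 3.57 (at least 5), 3.97 (thinned), 3.41 (without myeloid RNA), 3.57 (without those 3 genes) and 3.04 to 3.54 without single wells. Within the chosen cells IL-27 over PBS was 0.849 (at least 5), 0.834 (2 rule genes), 0.858 (thinned), 0.748 (without those 3 genes) and 0.781 to 0.863 without single wells. Over all gated B cells it was 1.003 thinned, 0.957 without those 3 genes and 0.860 to 1.16 without single wells. It was reversed at 1.003 thinned, 1.005 without IL-27 well 3 and 1.16 without PBS well 1.

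Genes at least 2-fold higher than in other B cells numbered 148 with a sum of at least 5, 220 with no minimum level and 74 to 132 without single wells. Lower genes numbered 26 (at least 5), 7 (2 rule genes), 53 (thinned), 36 (no minimum) and 4 to 10 without single wells (7 without IL-27 well 3, 8 without PBS well 1 and 10 without PBS well 2). For IL-27 over PBS, higher genes numbered 19 (sum of at least 2), 123 (at least 5), 116 (thinned), 74 (CPM without immunoglobulin, mitochondrial and ribosomal genes), 175 (no minimum) and 41 to 96 without single wells, the highest without PBS well 1. Lower genes numbered 97 (at least 5), 82 (thinned), 78 (that CPM), 162 (no minimum), 13 (without myeloid RNA) and 22 to 178 without single wells, the highest without PBS well 1.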

Other observations

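Plac8, an interferon-responsive gene of leukocytes, had log2 ratios over other B cells of 0.82 in IL-27 and 1.34 in PBS, and of 0.56 and 0.81 without the cells with myeloid RNA. Tor3a, an interferon-induced ATPase, had 90.2, 130 and 116 CPM in interferon-stimulated B cells of the IL-27 wells, against 127 and 220 CPM in those of the PBS wells. Isg20, an exonuclease of viral RNA, had 128, 104 and 83.2 CPM in IL-27, against 128 and 139 CPM in PBS. For Slfn5, of the Schlafen family, the values were 63.99, 125 and 83.2 CPM in IL-27, against 132 and 197 CPM in PBS. Trim30a had 148, 118 and 150 CPM in IL-27, against 201 and 222 CPM in PBS, with no overlap of wells, and its reads may be shared with close copies. Zbp1, a sensor of left-handed nucleic acid, had 122, 183 and 129 CPM in IL-27, against 201 and 176 CPM in PBS, and IL-27 well 2 lay between the PBS wells.

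Among genes lower than in other B cells no named gene outside the kappa variable genes reached 2-fold in both libraries. Vgll4, a cofactor of TEAD factors, had log2 ratios of -0.75 in IL-27 and -0.24 in PBS. H2-DMb1, which helps load peptides onto MHC class II, had -0.46 and -0.48, and Apoe had -0.46 and -0.49. Cdkn1b, an inhibitor of cell cycle entry, had -0.58 and -0.40, and Cmah had -0.47 and -0.48.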
